A study of Homo sapiens with 9 samples.

Results

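The transcripts described are those of 8 proteoglycan core proteins, HSPG2, AGRN, VCAN, BGN, DCN, SRGN, SPOCK1 and CSPG4, taken by gene symbol from a count table of 23710 entries. Of these 8 genes, 6 had a count in at least 1 library and 4 (HSPG2, AGRN, SRGN and CSPG4) were among the 12546 genes that passed a filter on low counts and were tested. The cells were MDA-MB-231, an established human line of triple-negative breast cancer. They carried a pGIPZ lentiviral vector with hairpin shUGDH-1 against UGDH (3 libraries), hairpin shUGDH-2 against UGDH (3 libraries) or the non-targeting hairpin shNT (3 libraries). All 3 groups were therefore transduced, and all were grown in medium with 5% fetal bovine serum as biological replicates. Whether each replicate was a separate transduction, and whether the lines were clones or pools, is not given in the labels, so p-values measure only the spread between these libraries, which may be technical.

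A proteoglycan is a core protein to which long sulfated glycosaminoglycan chains are attached, usually on serines followed by glycine. Chain growth starts with a linker of xylose, galactose and glucuronate, and both the linker and the repeating chain use UDP-glucuronate, which UGDH, UDP-glucose 6-dehydrogenase, makes from UDP-glucose. HSPG2 (perlecan) and AGRN (agrin) are large heparan sulfate proteoglycans of basement membranes, VCAN (versican) is a chondroitin sulfate proteoglycan that binds hyaluronan, and BGN (biglycan) and DCN (decorin) are small leucine-rich proteoglycans that bind collagen and are typical of fibroblasts. SRGN (serglycin) is packed into the granules of blood cells and is also secreted by tumour cells, SPOCK1 (testican-1) is a secreted proteoglycan related to SPARC, and CSPG4 (NG2) spans the plasma membrane, so that it is a matrix-facing core rather than a secreted one.

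The UGDH hairpins are shown because they define the groups. The sequences are the submitters' hairpin sequences, 5′ to 3′, with bases 2 to 8 of each, the seed of a small RNA guide, in capitals.
shUGDH-1: tTGCATCAaatatgcgacg
shUGDH-2: aTATACTTcagatctgctg
Both are antisense to the UGDH transcript in GENCODE 29, and the non-targeting sequence is not. The reverse complement of the shUGDH-1 seed, TGATGCA, had 0 matches in the 3′ UTR of HSPG2, AGRN, SRGN and CSPG4. The reverse complement of the shUGDH-2 seed, AAGTATA, also had 0 in these genes. In that annotation 18209 genes have 3′ UTRs of 50 bases or longer, and 8.7% of them held the first and 11.4% the second. Among the other members, DCN held 2 matches to each, and VCAN and SPOCK1 held 1 match each to the shUGDH-2 seed. A match is a stretch of letters in these transcript models and not a measured site.

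The libraries held 9249738 to 13328002 counts. UGDH averaged 7.65 ± 0.37 CPM with shUGDH-1, 7.17 ± 0.80 CPM with shUGDH-2 and 53.0 ± 2.7 CPM with shNT (SD, n = 3 each), where CPM is the count scaled to a common library total. Its log2 fold change was -2.80 with the first hairpin (SE 0.085, adjusted p = 3.9e-36) and -2.89 with the second (SE 0.084, adjusted p = 1.2e-36), by edgeR. The markers of this line were present, with AXL at 2340, 2350 and 2260 CPM and VIM at 2500, 2140 and 2210 CPM with shUGDH-1, shUGDH-2 and shNT. SPARC, also on that list, was under 1 CPM in each group, at 0.959, 0.647 and 0.798 CPM. ESR1 was at 0.0362 CPM with shUGDH-1 and at 0 in the other groups, and PGR was at 0 in every library. The summed level of 10 luminal breast markers, most of it keratin, moved with the groups. It lay at 1570 to 1600 CPM with shUGDH-1, 1350 to 1390 CPM with shUGDH-2 and 1210 to 1230 CPM with shNT, and its part in the results below was not tested.

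HSPG2 and AGRN held most of the counts of the 8 genes. HSPG2 took 43.4 ± 0.46% of the set's counts with shUGDH-1, 42.2 ± 0.52% with shUGDH-2 and 39.2 ± 0.35% with shNT (SD, n = 3 each). AGRN took 49.5 ± 0.46%, 52.2 ± 0.61% and 53.2 ± 0.51% in the same order of groups. The summed level of the 8 genes was 1436 ± 17.9 CPM with shUGDH-1, 1411 ± 22.8 CPM with shUGDH-2 and 1258 ± 21.5 CPM with shNT (SD, n = 3 each). Per kilobase of exon in GENCODE 29, a scale on which genes of different length can be ordered, AGRN was the highest of the set, above SRGN, HSPG2 and CSPG4 in that order in all 3 groups. AGRN lay at the 95.1, 95.3 and 94.7 percentile of 11627 tested genes with a length in shUGDH-1, shUGDH-2 and shNT cells, and CSPG4 at 39.7, 29.3 and 32.3. With shUGDH-1, SRGN stood at 45.6 ± 0.40 and HSPG2 at 43.5 ± 0.27 CPM per kilobase. With shUGDH-2 they stood at 42.7 ± 2.0 and 41.5 ± 0.90 CPM per kilobase, where their libraries overlapped, and with shNT at 52.0 ± 3.2 and 34.4 ± 0.89 CPM per kilobase (SD, n = 3 each).

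**Figure D1:**
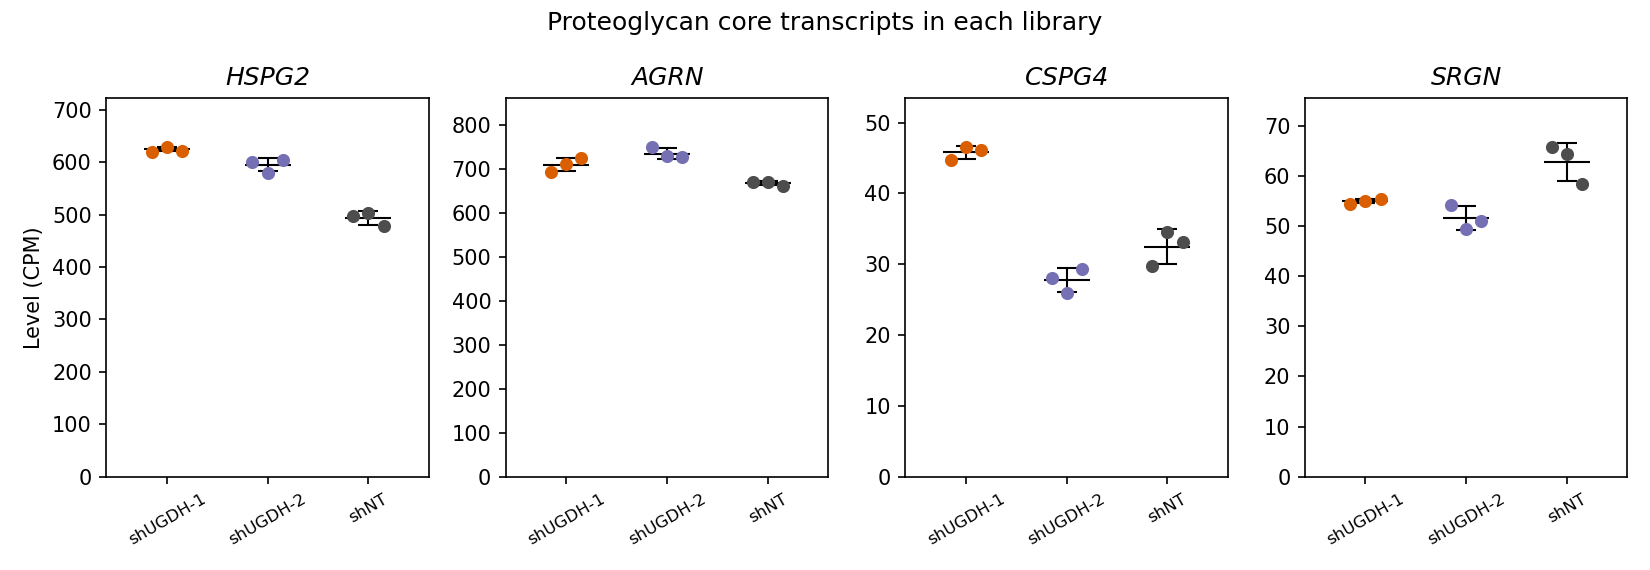
Level of each of the 4 tested proteoglycan cores in CPM (vertical axes from 0, one scale per gene) in the 3 libraries of shUGDH-1, shUGDH-2 and shNT. Points are libraries, and bars show the mean and SD of 3. HSPG2 and AGRN lie above the shNT libraries with either UGDH hairpin, SRGN lies below them (AGRN turned round with shUGDH-1 once GC offsets were used), and CSPG4 lies above them with shUGDH-1 and below them with shUGDH-2.

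The stretch from 250 bases before to 50 bases after the start is shown for HSPG2 and CSPG4, the tested members with a stretch in the table, from RefSeq on GRCh38.p14. The table held such a stretch for 4 of the 8 members, HSPG2, VCAN, BGN and CSPG4. Capitals mark each GGGCGG or its reverse complement CCGCCC, the core of a GC box.
HSPG2 (chr1:21937261-21937560, minus strand): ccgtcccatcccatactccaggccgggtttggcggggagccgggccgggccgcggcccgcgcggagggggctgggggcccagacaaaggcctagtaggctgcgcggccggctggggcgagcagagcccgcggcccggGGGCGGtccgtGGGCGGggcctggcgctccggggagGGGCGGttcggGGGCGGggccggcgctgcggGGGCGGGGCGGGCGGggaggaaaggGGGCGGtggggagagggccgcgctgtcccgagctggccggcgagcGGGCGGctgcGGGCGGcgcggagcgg
CSPG4 (chr15:75712799-75713098, minus strand): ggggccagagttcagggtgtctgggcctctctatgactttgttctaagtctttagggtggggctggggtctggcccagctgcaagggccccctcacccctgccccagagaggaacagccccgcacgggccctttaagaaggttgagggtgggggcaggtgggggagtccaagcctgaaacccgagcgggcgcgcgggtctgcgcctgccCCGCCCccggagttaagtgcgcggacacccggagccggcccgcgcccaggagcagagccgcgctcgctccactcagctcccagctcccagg
With both strands searched, HSPG2 held 10 GC box matches, some of them overlapping and all reading GGGCGG on the strand shown. CSPG4 held 1, reading CCGCCC. BGN held 5 and VCAN 1, and 45.0% of 35116 such stretches held at least 1. The AP-2 motif GCCNNNGGC was found 1 time in HSPG2 and 0 times in CSPG4, BGN and VCAN, against 23.2% of all stretches with a match, and TATAAA in none of these 4, against 11.5%. GC content was 83.3% in the HSPG2 stretch and 69.3% in that of CSPG4, with a median of 58.7% over all.

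In shUGDH-1 cells 3 of the 4 tested cores were higher than in shNT cells (HSPG2, AGRN and CSPG4) and 1 was lower (SRGN), at an adjusted p under 0.05 over all genes by edgeR's quasi-likelihood test. In shUGDH-2 cells 2 were higher (HSPG2 and AGRN) and 2 were lower (SRGN and CSPG4). The share of all tested genes called was 20.8% with shUGDH-1 (10.5% higher and 10.3% lower) and 14.9% with shUGDH-2 (8.04% higher and 6.81% lower). Among the called genes the median absolute log2 fold change was 0.20 with shUGDH-1 and 0.18 with shUGDH-2. Without replicate 1 of shUGDH-2, 496 genes in all were lower with that hairpin, against 855 with all libraries. In bulk RNA, fewer cells that carry a transcript and less of it in each cell cannot be told apart.

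HSPG2, the perlecan gene, on the minus strand of chromosome 1 (21822245 to 21937297, GRCh38), was higher with both UGDH hairpins. Its level was 620, 628 and 622 CPM in the shUGDH-1 libraries, 600, 580 and 604 CPM in the shUGDH-2 libraries and 498, 503 and 479 CPM in the shNT libraries. Every library of either UGDH hairpin was above every shNT library, and every shUGDH-1 library was above every shUGDH-2 library. Groups did not overlap for 34.1% of all tested genes with shUGDH-1 against shNT, for 28.5% with shUGDH-2 against shNT and for 27% between the UGDH hairpins. Its log2 fold change in shUGDH-1 cells was 0.34, or 1.26-fold (SE 0.022, edgeR adjusted p = 6.6e-20). In shUGDH-2 cells it was 0.27, or 1.21-fold (SE 0.022, edgeR adjusted p = 1.4e-15). Both comparisons use the same shNT libraries. Exons of HSPG2 overlap exons of LDLRAD2 on the opposite strand, and whether counting used strand is not given in the sources used here. LDLRAD2 held 1 to 7 counts in any library and HSPG2 5621 to 8345. The part of this overlap in the HSPG2 result was not tested.

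AGRN encodes agrin, a basement membrane protein that also organises the nerve-muscle synapse, and lies on the plus strand of chromosome 1 (1020123 to 1056118, GRCh38). Its level was 695, 713 and 725 CPM with shUGDH-1, 750, 731 and 728 CPM with shUGDH-2 and 672, 672 and 663 CPM with shNT. No library of either UGDH hairpin fell within the shNT range. In shUGDH-1 cells the log2 fold change was 0.087, or 1.06-fold (SE 0.020, edgeR adjusted p = 0.00071), and in shUGDH-2 cells it was 0.14, or 1.1-fold (SE 0.020, edgeR adjusted p = 3.4e-07). This direction did not hold in a fit with offsets for GC content, length and expression, chosen after seeing the data, where AGRN stood at -0.050 in shUGDH-1 cells (edgeR adjusted p = 0.049) and at 0.015 in shUGDH-2 cells (edgeR adjusted p = 0.70).

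SRGN, the serglycin gene, on the plus strand of chromosome 10 (69088106 to 69104811, GRCh38), was lower with both hairpins. The libraries held 54.5, 55.1 and 55.5 CPM with shUGDH-1, 54.2, 49.5 and 51.0 CPM with shUGDH-2 and 65.7, 64.4 and 58.4 CPM with shNT. The lowest shNT library, replicate 3, stood closest to the knockdown libraries but did not overlap them. In shUGDH-1 cells the log2 fold change was -0.19, or 0.875-fold (SE 0.052, edgeR adjusted p = 0.0039), and in shUGDH-2 cells it was -0.29, or 0.819-fold (SE 0.052, edgeR adjusted p = 3.2e-05). In the fit with offsets it stood at -0.057 (edgeR adjusted p = 0.49) and -0.15 (edgeR adjusted p = 0.030). SRGN is a typical gene of blood cells. The 10 leukocyte markers summed to 85.1 to 91.6 CPM with shUGDH-1, 87.3 to 94.0 CPM with shUGDH-2 and 93.6 to 101 CPM with shNT, nearly all of it from the lysosomal gene CD68, and their part in the result was not tested. CD14, also on that list, went the other way from the sum, at 2.34, 1.82 and 1.54 CPM with shUGDH-1, shUGDH-2 and shNT. CD3E, MS4A1 and TYROBP were at 0 in every library, and PTPRC, which marks all leukocytes, was at 0.0513, 0.0281 and 0.0512 CPM in the 3 groups.

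CSPG4, the NG2 core, on the minus strand of chromosome 15 (75674322 to 75712848, GRCh38), went opposite ways with the UGDH hairpins. It had 44.7, 46.5 and 46.1 CPM with shUGDH-1, 28.1, 26.0 and 29.3 CPM with shUGDH-2 and 29.7, 34.6 and 33.1 CPM with shNT. The shUGDH-1 libraries stood far above all others, whereas the highest shUGDH-2 library lay just under the lowest shNT library. In shUGDH-1 cells the log2 fold change was 0.50, or 1.41-fold (SE 0.063, edgeR adjusted p = 5.1e-09), and in shUGDH-2 cells it was -0.22, or 0.857-fold (SE 0.068, edgeR adjusted p = 0.018). The lower level with shUGDH-2 was not called by DESeq2 (adjusted p = 0.082), nor without replicate 2 of shNT (0.12), replicate 3 of shNT (0.069) or replicate 2 of shUGDH-2 (0.13), each an adjusted p. In the authors' deposited table its log2 fold change was also -0.22, with an adjusted p of 0.086. Pseudogene copies of CSPG4 lie elsewhere in the genome and an antisense gene overlaps it, so the assignment of its reads is uncertain. CSPG4 marks pericytes in normal tissue. The 8 pericyte and smooth muscle markers summed to 31.5 to 35.1 CPM with shUGDH-1, 34.0 to 36.1 CPM with shUGDH-2 and 32.2 to 33.9 CPM with shNT. PDGFRB was the highest at 20.7, 22.2 and 20.1 CPM. None of the 8 was at 0 throughout, but only 4 passed the filter on low counts. DES, MYH11, KCNJ8 and ABCC9 averaged at most 0.829 CPM in any group.

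Compared directly, CSPG4 was lower with shUGDH-2 than with shUGDH-1 by a log2 value of -0.72 (95% interval -0.85 to -0.59, adjusted p = 1.2e-13, edgeR's quasi-likelihood test), or 0.607-fold. HSPG2 was also lower with shUGDH-2, by -0.068 on the log2 scale (95% interval -0.11 to -0.025, adjusted p = 0.026, same test). That small difference was not called without any 1 of the shUGDH-1 libraries (adjusted p = 0.059, 0.15 and 0.078 for replicates 1, 2 and 3) or without replicate 2 of shUGDH-2 (adjusted p = 0.23). AGRN stood at 0.051 (95% interval 0.011 to 0.091, adjusted p = 0.092) and SRGN at -0.095 (95% interval -0.20 to 0.012, adjusted p = 0.29), and neither passed. For AGRN the adjusted p was 0.049 without replicate 1 of shNT. Over all genes, 10.9% were called between the UGDH hairpins, 5.36% higher and 5.51% lower with shUGDH-2.

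**Figure D2:**
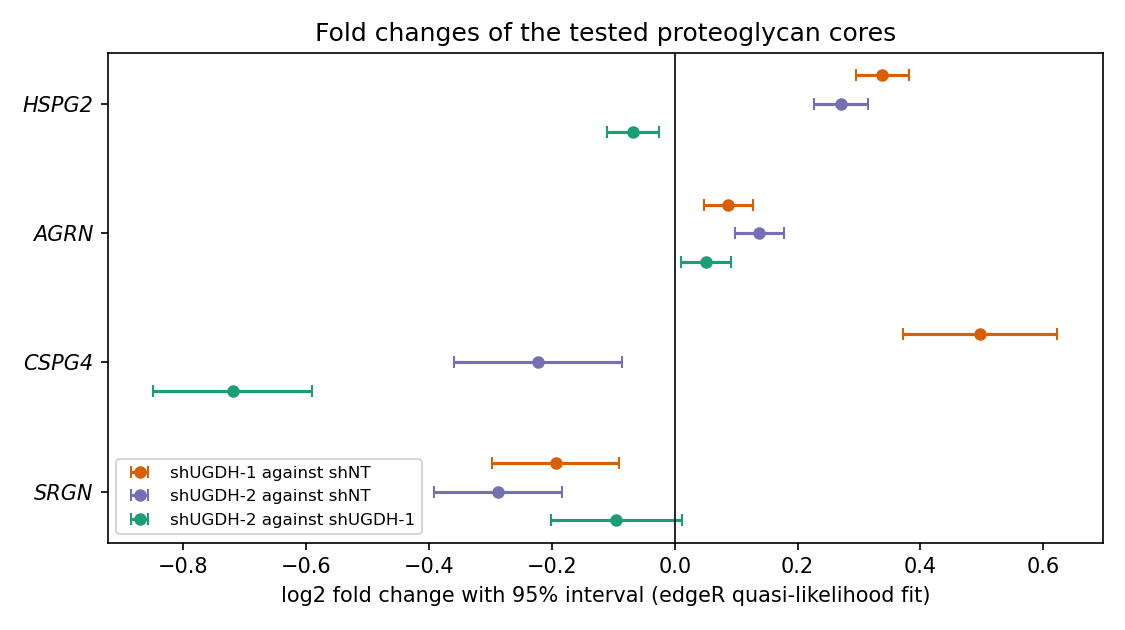
Log2 fold change (horizontal axis) of the 4 tested cores in each comparison, with the 95% interval of the edgeR fit as bars. The intervals of HSPG2 and AGRN against shNT lie above 0 and those of SRGN below 0 with either hairpin, and the CSPG4 intervals lie on opposite sides of 0.

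The fold changes of all genes moved with the GC content of the transcript, and the 4 cores stand at the ends of that range. HSPG2, AGRN and CSPG4 transcripts have 64.5%, 67.6% and 63.5% GC and fall in the richest of 10 equal bins of genes by GC content (62.3% to 74.7%), and SRGN, with 38.1%, falls in the poorest bin (31.8% to 39.0%). Over all genes, the median log2 fold change in shUGDH-1 cells was 0.072 in the richest bin and -0.085 in the poorest. In shUGDH-2 cells these medians were 0.059 and -0.077. Between the UGDH hairpins they were -0.013 and 0.001. The part of this trend in the members' changes was not tested beyond the offsets that follow.

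With the trend of each library with GC content, exon length and expression removed by offsets in the edgeR fit, an alternative chosen after seeing the data, HSPG2 remained higher at log2 values of 0.21 (adjusted p = 1.7e-14) with shUGDH-1 and 0.15 (adjusted p = 9.6e-09) with shUGDH-2. CSPG4 stood at 0.39 (adjusted p = 1.8e-07) and -0.32 (adjusted p = 0.00021), and its difference between the hairpins at -0.71 (adjusted p = 5.9e-17). AGRN lost its call in shUGDH-2 cells and turned round in shUGDH-1 cells, and SRGN kept its call in shUGDH-2 cells only, as given above. The difference in AGRN between the hairpins, 0.064, was called in that fit (adjusted p = 0.010). The offsets also take expression into account, so a change shared by genes of similar level is removed with the rest.

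**Figure D3:**
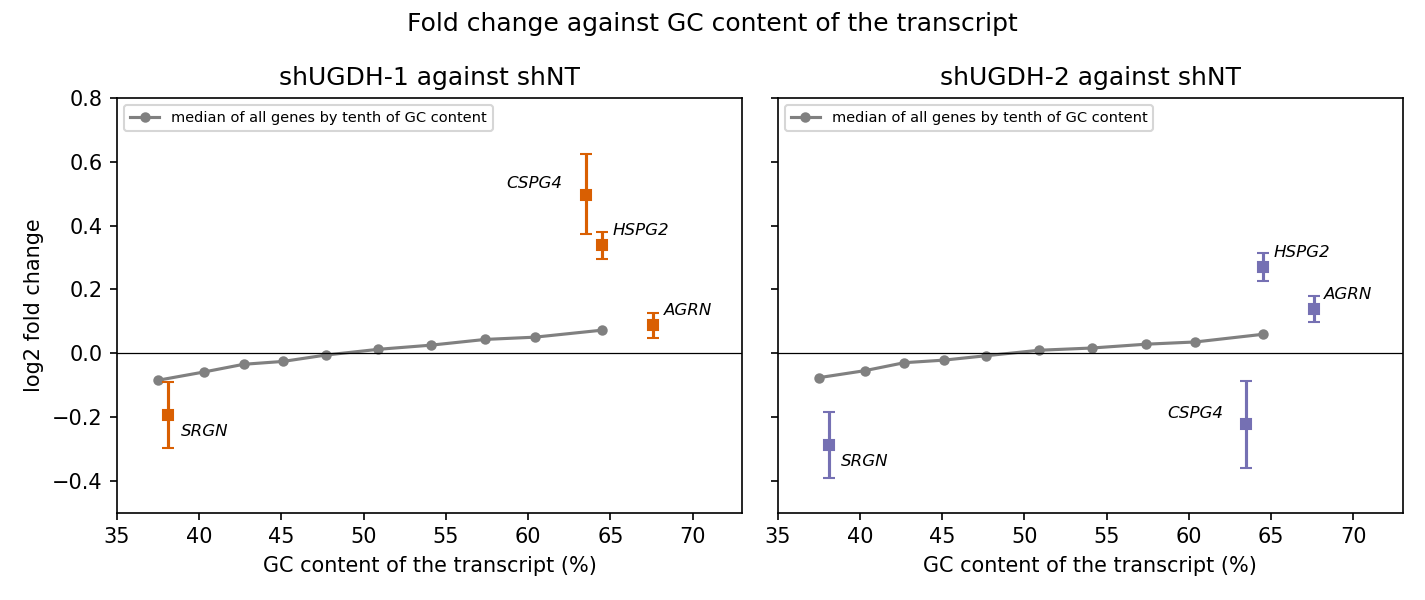
Log2 fold change against shNT (vertical axis) plotted on GC content of the transcript in percent (horizontal axis), for shUGDH-1 on the left and shUGDH-2 on the right. Grey points are the medians of all genes in 10 equal bins of GC content, and squares are the 4 cores with their 95% intervals. The grey medians run upward from -0.085 to 0.072 on the left. HSPG2 lies above the line in both panels, and CSPG4 lies above it on the left and below it on the right.

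Of the members not tested, BGN and DCN had 0 counts in all 9 libraries. A count of 0 allows up to 3 counts, which is 0.226 to 0.326 CPM in a single library, and over the 3 libraries of a group 0.0845, 0.0806 and 0.0821 CPM with shUGDH-1, shUGDH-2 and shNT. Such limits cover counting error only. DCN and BGN are typical of fibroblasts, and of the 9 fibroblast markers LUM was likewise at 0 in every library while PDGFRA, THY1, FAP and POSTN were under 0.1 CPM in each group. Other markers of that list were present. COL1A1 was at 10.6, 13.3 and 9.89 CPM and COL1A2 at 11.8, 3.84 and 6.18 CPM with shUGDH-1, shUGDH-2 and shNT. COL3A1 was at 0.112, 0.299 and 0.111 CPM in the same order. The sum of these 9 markers, with PDGFRB the highest, was 41.5 to 44.2 CPM with shUGDH-1, 38.4 to 40.6 CPM with shUGDH-2 and 34.2 to 37.9 CPM with shNT. VCAN had 3, 4 and 1 counts in the shUGDH-1 libraries, 3, 2 and 5 in the shUGDH-2 libraries and 5, 8 and 4 in the shNT libraries. In a fit without the filter, VCAN was not called with shUGDH-1 (adjusted p = 0.39) or shUGDH-2 (adjusted p = 0.58), by edgeR. SPOCK1 had 2, 2 and 3 counts in the shUGDH-1 libraries, 1, 1 and 1 in the shUGDH-2 libraries and 0, 0 and 1 in the shNT libraries, with adjusted p = 0.24 and 0.69 in that fit. Differences in these genes were not detectable at this depth.

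Genes whose levels followed a member most closely over the 9 libraries were found by the root mean square difference of log2 CPM, each gene centred on its own mean, among 10366 other genes of at least 5 CPM. The libraries share the same groups and depths, so likeness is a description. For HSPG2 these were EGR1, an immediate-early transcription factor, PNPLA2, a triglyceride lipase, and DPYSL2, a cytoskeletal regulator, which differed from it by 0.0249, 0.0265 and 0.0300 log2 units per library, against 0.172 for the median gene. For AGRN they were LRP5, a Wnt co-receptor, RNF10 and MTMR4, at 0.0147, 0.0151 and 0.0199 against 0.105. For SRGN they were AMIGO2, PLCXD1 and MTERFD1, at 0.0377, 0.0471 and 0.0514 against 0.151. For CSPG4 the nearest were SERINC2, FOS, another immediate-early factor, and AFAP1L2, at 0.0940, 0.0990 and 0.103 against 0.320. A gene that did not vary at all would differ by 0.148 from HSPG2, 0.06 from AGRN, 0.129 from SRGN and 0.308 from CSPG4. Each of these values is already under that of the median gene. In shUGDH-1 cells FOS stood at a log2 fold change of 0.30 and SERINC2 at 0.62, and in shUGDH-2 cells at -0.28 and -0.048.

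Genes that work with the cores were followed in 5 lists. Of 24 other secreted and matrix cores, 8 had no count and 5 were tested. Of these, 1 rose with both hairpins, where 4.72% of all tested genes did so. That core was COL18A1, a basement membrane collagen that carries heparan sulfate. It had 206 ± 3.2 CPM with shUGDH-1, 188 ± 4.2 CPM with shUGDH-2 and 175 ± 5.5 CPM with shNT (SD, n = 3 each). Its log2 fold changes were 0.23 (adjusted p = 2.3e-08) and 0.10 (adjusted p = 0.015) by edgeR. With the GC offsets these were 0.10 (adjusted p = 0.008) and -0.016 (adjusted p = 0.81). The leucine-rich core TSKU, the only other one of the list above 5 CPM, stood at 0.077 and 0.086 and was not called. The other 3 tested genes of the list were near 1 CPM. The median log2 fold change of the 5 was 0.14 and 0.086, against -0.003 and -0.006 over all genes, but with the GC offsets it was 0.039 and turned to -0.016.

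Of 12 tested membrane cores, 4 were called higher and 2 lower in shUGDH-1 cells, as were 2 and 1 in shUGDH-2 cells. The share called over all tested genes was 20.8% with shUGDH-1 and 14.9% with shUGDH-2. With the GC offsets the counts were 4 higher and 2 lower in shUGDH-1 cells, and 2 higher and 2 lower in shUGDH-2 cells. The syndecan gene SDC4 rose with both, to 357 ± 11.8 CPM with shUGDH-1 and 402 ± 5.2 CPM with shUGDH-2, against 325 ± 7.7 CPM with shNT (SD, n = 3 each). SDC2 rose only in the comparison of shUGDH-1, at a log2 value of 0.56 (adjusted p = 1.2e-06), against 0.15 (adjusted p = 0.33) with shUGDH-2, and the difference between the hairpins was called (log2 -0.42, adjusted p = 0.00031). CD74, the invariant chain, which exists in part as a chondroitin sulfate proteoglycan, fell with shUGDH-1 (log2 -0.17, adjusted p = 3e-07) and rose with shUGDH-2 (log2 0.26, adjusted p = 2.1e-13), opposite to CSPG4. TGFBR3, betaglycan, fell with shUGDH-2 (log2 -0.25, adjusted p = 0.0064) and stood at -0.082 with shUGDH-1. The list's median was 0.051 and 0.030, and with the GC offsets it turned to -0.035 and -0.004. CD44, which binds hyaluronan and serglycin, stood at -0.030 and -0.025 and was not called. All p-values here are from edgeR's quasi-likelihood test.

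Of 6 tested enzymes that build the linker between core and chain, 1 was called higher and 1 lower with each hairpin. Over all tested genes, 20.8% were called with shUGDH-1 and 14.9% with shUGDH-2. XYLT2, a xylosyltransferase that adds the first sugar, rose with both hairpins (log2 0.26, adjusted p = 0.00019, and 0.21, adjusted p = 0.0043, by edgeR). FAM20B, the kinase that phosphorylates this xylose, fell with both (log2 -0.16, adjusted p = 0.0037, and -0.20, adjusted p = 0.00043, by edgeR). B4GALT7, B3GALT6 and B3GAT3, which add the galactoses and the first glucuronate, lay between -0.098 and 0.079 in either comparison. The list's median was 0.057 and 0.009, and over the 5 of these genes with a GC value it turned to -0.028 and -0.055 with the offsets.

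Among proteases and heparanases that act on the cores or their chains, 8 genes were tested. Of these, 3 were called higher and 1 lower in shUGDH-1 cells, and 4 higher and 0 lower in shUGDH-2 cells. The share called over all tested genes was 20.8% with shUGDH-1 and 14.9% with shUGDH-2. With the GC offsets, of 7 genes, 2 were higher and 0 lower in shUGDH-1 cells, and 4 higher and 0 lower in shUGDH-2 cells. PRSS12, neurotrypsin, a protease that cleaves agrin, had 13.7 ± 0.24 CPM with shUGDH-1, 11.7 ± 0.82 CPM with shUGDH-2 and 9.13 ± 0.92 CPM with shNT (SD, n = 3 each), and rose with both (log2 0.58, adjusted p = 3.7e-05, and 0.36, adjusted p = 0.020, by edgeR). MMP14, a membrane-bound matrix metalloprotease, rose by 1.06-fold and 1.07-fold, and with the GC offsets its adjusted p was 0.18 with shUGDH-1. ADAMTS9, a protease of versican, rose with shUGDH-1 (log2 0.30, adjusted p = 0.0034, edgeR), and the cathepsin L gene CTSL1, a lysosomal protease, fell (log2 -0.26, adjusted p = 2.8e-07, edgeR). With shUGDH-2 they stood at 0.10 and -0.070 and were not called. The list's median was 0.075 and 0.11, and over the 7 of these genes with a GC value it was 0.066 and 0.063 with the offsets.

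Receptors and binding partners of the cores moved in both directions, with 9 of 26 tested genes called higher and 7 lower in shUGDH-1 cells, and 8 higher and 3 lower in shUGDH-2 cells. The share called over all tested genes was 20.8% with shUGDH-1 and 14.9% with shUGDH-2. With the GC offsets the counts were 6 higher and 7 lower in shUGDH-1 cells, and 6 higher and 5 lower in shUGDH-2 cells. With both hairpins 6 rose and 2 fell, where 4.72% and 3.61% of all tested genes did so, and of these 4 and 1 kept both calls with the offsets. FBN1, fibrillin-1, which binds versican and perlecan, had 85.3 ± 2.0 CPM with shUGDH-1, 73.4 ± 3.2 CPM with shUGDH-2 and 58.3 ± 0.97 CPM with shNT (SD, n = 3 each). LAMA5, a laminin chain of basement membranes, rose by 1.19-fold and 1.16-fold, and LRP1, an endocytic receptor that takes up decorin, by 1.21-fold and 1.2-fold. With the GC offsets the log2 fold changes of LAMA5 went from 0.256 and 0.214 to 0.117 and 0.085. Those of LRP1 went from 0.274 and 0.26 to 0.176 and 0.169, and both genes kept their calls. TNC, tenascin-C, a partner of versican, fell to 24.3 ± 0.89 CPM with shUGDH-1 and 29.5 ± 2.7 CPM with shUGDH-2, against 34.7 ± 3.1 CPM with shNT (SD, n = 3 each). The list's median was 0.002 and -0.007, and -0.019 in both comparisons with the offsets.

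The genes through which agrin signals or binds to cells were named after their values were seen. LRP4 fell with shUGDH-1 (log2 -0.39, adjusted p = 0.0059, edgeR) and stood at -0.18 (adjusted p = 0.28) with shUGDH-2. MUSK, its signalling partner, was near 1 CPM and was not called. DAG1, dystroglycan, which binds agrin and perlecan through its sugars, rose by 1.04-fold and 1.08-fold, and with the GC offsets its adjusted p was 0.92 and 0.054. COL1A2, a type I collagen chain that decorin binds, named likewise after its values were seen, went opposite ways as CSPG4 did. It had 11.8 ± 1.6 CPM with shUGDH-1, 3.84 ± 0.88 CPM with shUGDH-2 and 6.18 ± 0.24 CPM with shNT (SD, n = 3 each).

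**Figure D4:**
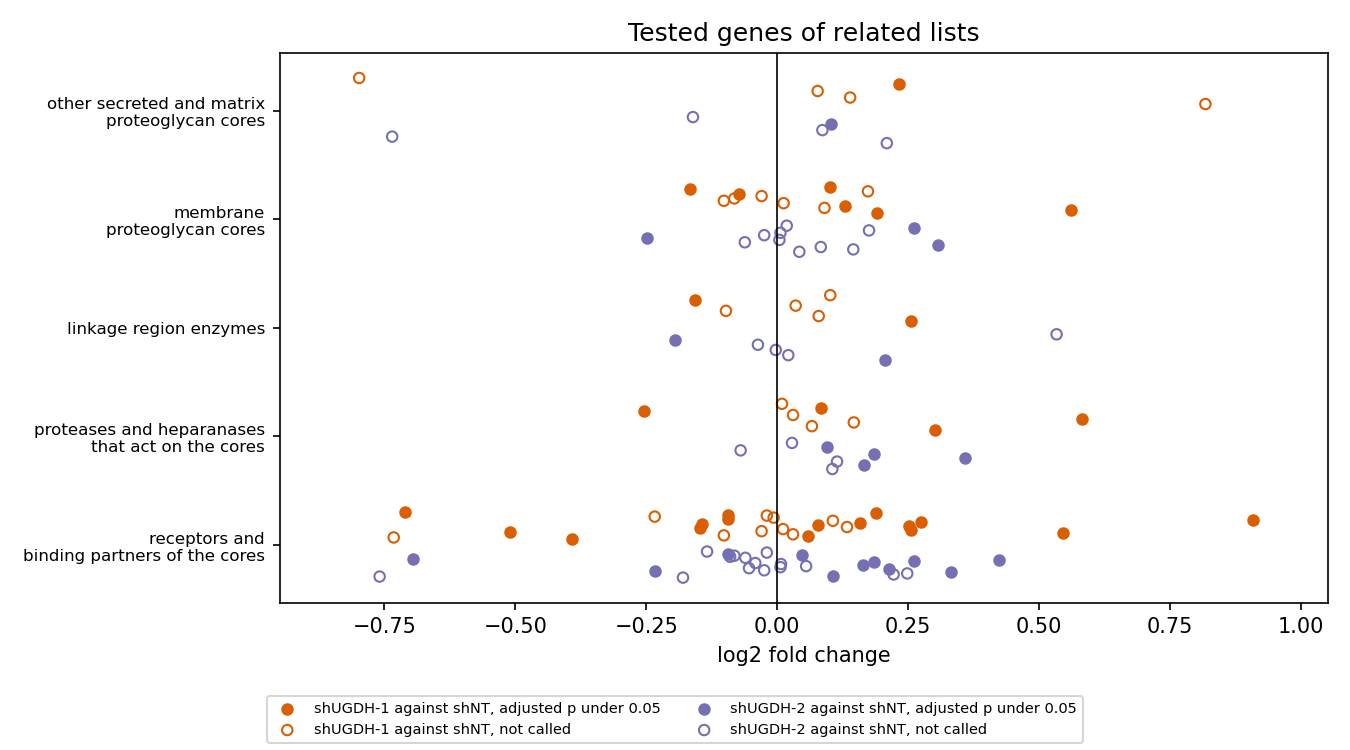
Log2 fold change against shNT (horizontal axis) of each tested gene in the 5 related lists (vertical axis), for shUGDH-1 in orange and shUGDH-2 in purple. Filled points passed an adjusted p under 0.05 and open points did not. Receptors and binding partners spread to both sides, and few linkage enzymes lie far from 0.

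**Figure D5:**
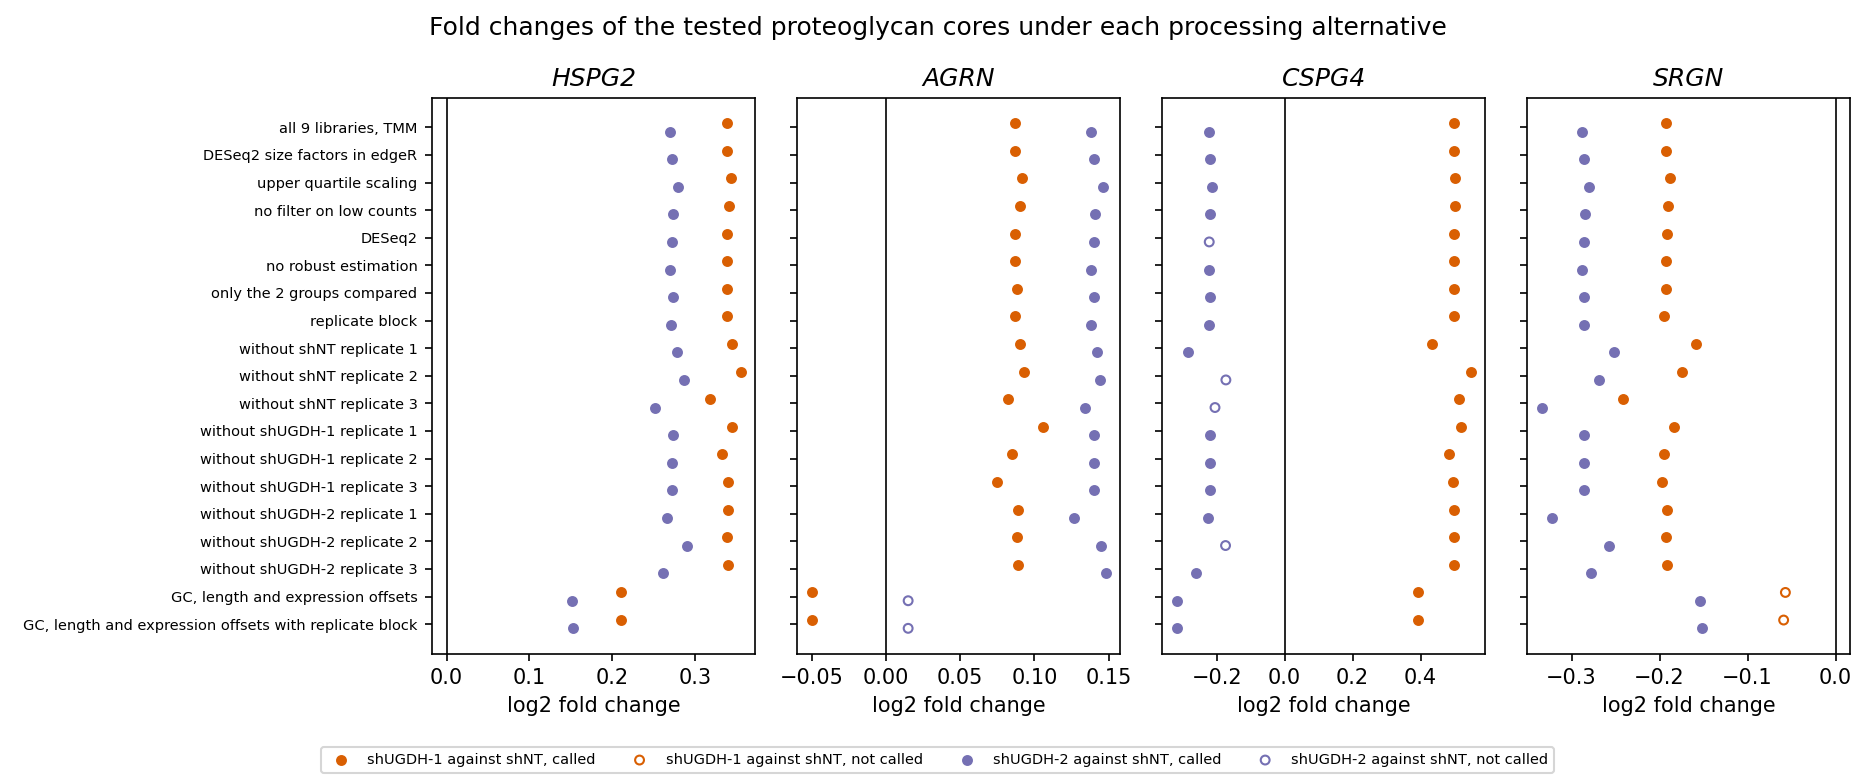
Log2 fold change against shNT (horizontal axes, one scale per gene) of the 4 tested cores under each processing alternative (vertical axis), for shUGDH-1 in orange and shUGDH-2 in purple. Filled points were called at an adjusted p under 0.05 and open points were not. AGRN crosses 0 with shUGDH-1 only in the lowest pair of settings, those with GC, length and expression offsets, and CSPG4 with shUGDH-2 loses its call under DESeq2 and without 3 single libraries.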

How the data were processed

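Per the labels' protocols, 200 ng of RNA per library went into a NuGen Universal Plus mRNA kit and was read as pairs of 76 bases. The deposited table gives raw counts per gene, and the authors' deposited tables give, per the file headers, log2 fold changes and p-values, used here for CSPG4 only. The submitters' processing notes name hg19, STAR, DESeq and DESeq2. No version, annotation, counter or strand setting is given in these sources.

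Counts were filtered with filterByExpr (12546 genes kept), scaled by TMM (factors 0.997 to 1.003) and fitted over all 9 libraries with edgeR 4.0.16 in R 4.3.3 (robust quasi-likelihood, 1 mean per group, 6 residual degrees of freedom), with Benjamini-Hochberg adjustment over all genes and calls under 0.05. SEs come from the F statistic. The 28 entries whose symbols had become dates, with 0.232% of counts, stayed in the fit and are not named. DESeq2 1.42.0, other scalings, no filter, no robust step, a replicate block and leaving out each library were alternatives. GC content and exon length came by symbol from GENCODE 29 on GRCh38, for 11292 genes, and no coordinate was converted. Replicates of a group differed by 1.19 to 1.91 times the counting variance.

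The members, lists and motifs were chosen with earlier results of these data known. Named genes were UGDH, the members, the 3 genes most like each called member and up to 4 genes per list of at least 5 CPM, those called the same way with both hairpins first. Genes named outside this rule (TSKU, CD44, the galactosyl- and glucuronyltransferases, LDLRAD2, and those so described) were chosen after their values were seen. The endothelial markers summed to 2.26 to 4.02 CPM with shUGDH-1, 2.77 to 3.72 CPM with shUGDH-2 and 3.57 to 4 CPM with shNT, and those of the line to 7910 to 7960, 7460 to 7600 and 7460 to 7580 CPM.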

Additional observations from a re-analysis of the deposited data

Results flagged for a closer look

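For 2 members the effect differed between the UGDH hairpins by a test of the difference itself. CSPG4 was lower with shUGDH-2 than with shUGDH-1 by -0.72 on the log2 scale, with every shUGDH-2 library below every shUGDH-1 library. HSPG2 differed by -0.068, and this difference was not called by DESeq2 or without any 1 of the shUGDH-1 libraries.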

How the results depend on the processing

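Each of the 12 member fold changes was recomputed under 18 alternatives. HSPG2 against shNT, CSPG4 with shUGDH-1, SRGN with shUGDH-2 and CSPG4 between the hairpins kept direction and call in all of them. With GC, length and expression offsets, AGRN with shUGDH-1 reversed to -0.050 (also with the replicate block added), SRGN with shUGDH-1 was -0.057 (-0.059 with the block) and AGRN with shUGDH-2 was 0.015, the last 2 not called, so 1 member was called higher with shUGDH-2. AGRN between the hairpins was then 0.064 and called, as 1 member higher. DESeq2 called 876 genes higher and 753 lower in shUGDH-1 cells (1318 and 1287 by edgeR), 611 and 400 in shUGDH-2 cells (1009 and 855 by edgeR) and 407 and 383 between the hairpins (672 and 691 by edgeR). It gave -0.222 for CSPG4 with shUGDH-2 and -0.066 for HSPG2 between the hairpins, neither called, which leaves 1 member lower in each. Upper quartile scaling gave -0.064 for HSPG2 between the hairpins, not called, and 1 member lower. The cause was not tested. Leaving out each replicate in turn gave -0.285 to -0.173 for CSPG4 with shUGDH-2, -0.079 to -0.048 for HSPG2 and 0.034 to 0.065 for AGRN between the hairpins, 1 to 2 members lower with shUGDH-2, 0 to 1 higher and 1 to 2 lower between the hairpins, and 496 to 815 genes lower with shUGDH-2, with 496 without replicate 1 of that hairpin.

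Samples with the same replicate number showed no general tendency to deviate together. Their correlations across genes ran from -0.082 to 0.132, against -0.119 to 0.093 for unlike numbers, and not every library correlated best with its own number. With 3 libraries per group this check cannot exclude a pairing, and the numbers were not used as pairs in the main fit. With the replicate block, CSPG4 with shUGDH-2 was -0.224 (adjusted p = 0.019), 1298 genes were higher and 1284 lower in shUGDH-1 cells, with counts of 993 and 864 for the other hairpin. The block alone changed no member's call. Depth limits what can be said of VCAN, SPOCK1, BGN and DCN.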
